A study of Homo sapiens with 26 samples.

Results

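KYSE180 is an established cell line derived from an esophageal squamous cell carcinoma (ESCC), and the 6 libraries described here compare it after knockdown of BRDT (siBRDT, 3 libraries) with the same line after transfection of a non-targeting small interfering RNA (siRNA; siCont, 3 libraries). They were chosen by their labels, line and knockdown alone, and are 6 of the 26 RNA-seq libraries of the study. In all 6, the cells carried no labelled alteration other than the siRNA, grew in RPMI-1640 medium with 10% FBS and were harvested 48 hours after transfection. Comparison values came from TE6, another ESCC line under the same knockdown (2 siCont and 2 siBRDT libraries), and from KYSE180 after knockdown of p63 (2 siTP63 libraries with 2 siCont libraries of their own). The study lists 4 siRNAs against BRDT, and which of them, alone or pooled, was transfected for the sequenced libraries is not given in the sources used here. No label says whether replicates were separate cultures, so p-values measure the spread between these libraries only. All libraries are bulk RNA from one line, in which fewer cells of a state and less RNA per cell cannot be told apart.

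BRDT belongs to the BET family and is normally restricted to the testis. BET proteins carry paired bromodomains that bind acetylated lysines on histone tails. In male germ cells BRDT takes part in the meiotic expression program and in chromatin compaction during spermiogenesis, and most somatic tissues keep the gene silent, so that its RNA in a squamous carcinoma is ectopic. BET proteins recruit the elongation kinase P-TEFb, which releases paused RNA polymerase II. TP63, the lineage factor of squamous epithelia, drives basal keratins, hemidesmosomes and desmosomes.

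The siRNAs are shown because a guide strand both defines the target and can act on other transcripts through its seed, bases 2 to 8 of the guide. Each line gives the sense strand, and the capitals mark the 7 bases that pair with the guide's seed.
siRNA #2, target in exon 2 of BRDT: caaaucaacuuCAGUAUCu
siRNA #3, target in exon 7 of BRDT: gaaaauggauaACCAAGAa
siRNA #4, target in exon 8 of BRDT: guagagagaacACUAAUGa
siRNA #18, target in exon 10 of BRDT: gagauaaacuuGGGCGAGu
siCont, non-targeting siRNA #5: ugguuuacaugUCGACUAa
All BRDT siRNAs fell in the coding sequence of the canonical transcript BRDT-205 (GENCODE 44, hg38, plus strand). The target of #2 lay at chr1:91962840-91962858 in exon 2 of 19, that of #3 at chr1:91978170-91978188 in exon 7, that of #4 at chr1:91979663-91979681 in exon 8 and that of #18 at chr1:91981008-91981026 in exon 10. The non-targeting sequence matched no annotated transcript of BRDT over its full 19 bases, and transcripts of other genes were not searched for full matches.

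Between 9085475 and 14779153 reads were counted in genes per library, and values are normalised read counts made with DESeq2 size factors. Pearson's r of log2 values was 0.990 to 0.995 within the groups and 0.958 to 0.964 between them. The first siBRDT library stood apart in listing 7513 genes at 0, against 8707 to 9298 in the other 5, and group counts are given without it where they move by 1.5 times or more and by more than 1 gene. The squamous label held: all 7 squamous markers passed the filter, with a summed value of 90440 to 98540 in siCont and 51550 to 53680 in siBRDT. Of the markers of other cell types, 4 of 9 fibroblast, 3 of 8 endothelial, 3 of 12 leukocyte and 1 of 11 columnar markers passed the filter. The fibroblast list summed to 1067 to 1210 in siCont and 1085 to 1270 in siBRDT with FAP listed at 0, and the endothelial list to 98.1 to 112.7 and 55.6 to 71.3. The leukocyte list summed to 581 to 641 and 256 to 321, and the columnar list to 216 to 248 and 294 to 351 with TFF1, TFF2 and GATA4 listed at 0. The part of these lists in the results below was not tested.

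In order to assess the knockdown, BRDT itself was measured first. Its normalised count was 1017, 1043 and 1136 in the siCont libraries and 132, 147 and 198 in the siBRDT libraries. The groups did not overlap, and the mean fell from 1065 ± 62.5 to 159 ± 34.9 (SD, n = 3), a 6.69-fold decrease that left 14.9% of the control level (log2 fold change −2.75 ± 0.12 (SE), adjusted p = 2.6e-10). Of its ubiquitously expressed family members, BRD2 stood at 3679 ± 105 in siCont and 3417 ± 199 in siBRDT (log2 fold change −0.11 ± 0.06 (SE), adjusted p = 0.15), and BRD3 at 969.9 ± 36.6 and 1054 ± 58.5 (log2 fold change 0.12 ± 0.07 (SE), adjusted p = 0.15). Neither passed the test. Here and below, fold changes are siBRDT over siCont on log2(value + 1), which understates the change of low genes, and a gene was called when the adjusted p of limma's moderated test was under 0.05 and the log2 fold change was at least 0.5 in size.

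Upon BRDT knockdown, 2143 of 13589 genes tested (15.8%) were called down and 1972 (14.5%) were called up. The median log2 fold change of all genes tested was −0.01. In 8534 of the 13589 genes the siCont and siBRDT libraries did not overlap, among them 2114 of those called down and 1931 of those called up. Groups that do not overlap, as stated for single genes here, are thus common and do not by themselves set a gene apart. Decreases of at least 2-fold were made by 658 of the called genes and increases of that size by 555, and 52 fell and 43 rose by at least 4-fold. These shares are the background for every gene group below: for each group, the number of measured members called in each direction and the median are given beside 15.8% down, 14.5% up and a median of −0.01, and no group was tested as a set. Members of longer groups are named for the largest changes among those with a mean of at least 50, so that lower genes of a group may have changed more.

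**Figure D1:**
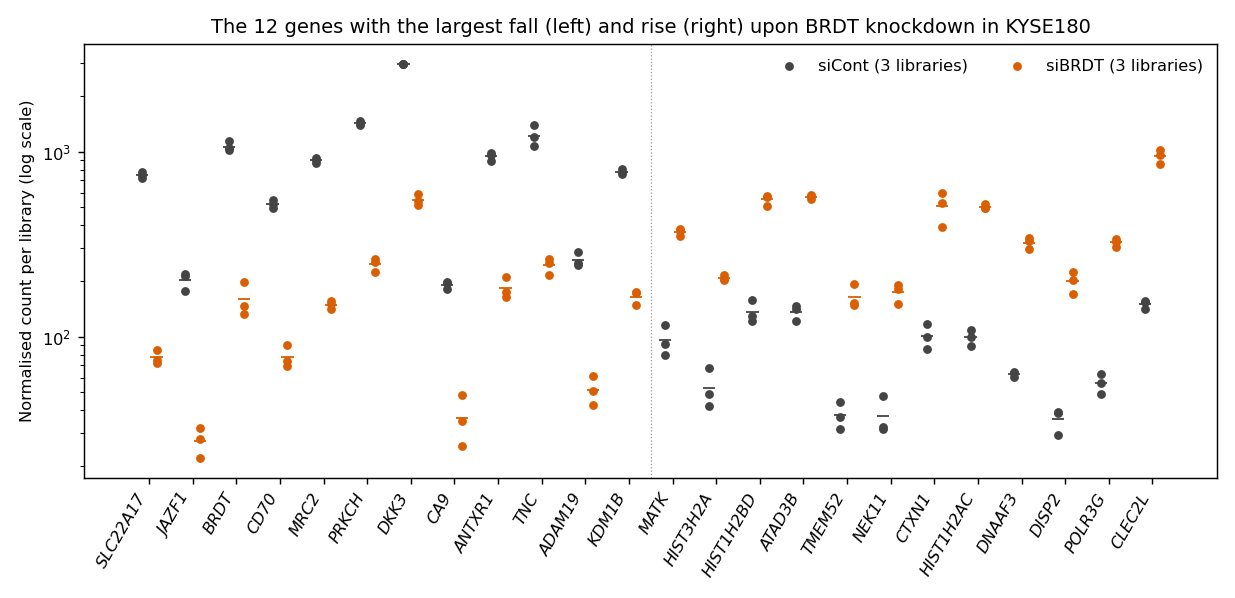
Normalised count on a log axis in each of the 3 siCont (grey) and 3 siBRDT (orange) KYSE180 libraries for the 12 genes with the largest fall and the 12 with the largest rise among called genes with a mean of at least 100 whose groups do not overlap, with bars at the group means. By this choice of genes the 3 orange points lie apart from the 3 grey points in each, and BRDT itself is among the falls.

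The largest fall among genes with a mean of at least 100 was that of SLC22A17, which encodes a receptor for the iron carrier lipocalin 2. It stood at 724, 776 and 745 in the siCont libraries and 85.2, 71.8 and 74.9 in the siBRDT libraries. The 2 groups were far apart, with a 9.69-fold lower mean upon knockdown (log2 fold change −3.26 ± 0.10 (SE), adjusted p = 1.3e-11). JAZF1, a zinc finger protein of the NuA4 acetyltransferase complex, went from 176, 212 and 218 to 31.9, 22.0 and 27.9 (log2 fold change −2.85 ± 0.16 (SE), adjusted p = 2.7e-09). CD70, a TNF family ligand of CD27, fell from 522 ± 24.5 to 77.5 ± 10.7 (log2 fold change −2.74 ± 0.11 (SE), adjusted p = 1.2e-10). The other large falls were cell surface and matrix genes for the most part: the collagen receptor gene MRC2 (−2.59), the anthrax toxin receptor gene ANTXR1 (−2.37), tenascin-C (TNC, −2.32), the metalloprotease gene ADAM19 (−2.32), the secreted protein gene DKK3 (−2.44) and carbonic anhydrase 9 (CA9, −2.41). The protein kinase C gene PRKCH (−2.52) and the histone H3K4 demethylase gene KDM1B (−2.24) completed the 12, all values being log2 fold changes.

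The largest rise among genes with a mean of at least 100 was that of CLEC2L, a C-type lectin-like gene. It stood at 141, 153 and 155 in the siCont libraries and 957, 1018 and 855 in the siBRDT libraries. Each siBRDT library was more than 5 times above each siCont library, and the mean was 6.30-fold higher (log2 fold change 2.64 ± 0.09 (SE), adjusted p = 3.1e-11). POLR3G, the alternative RNA polymerase III subunit of pluripotent and transformed cells, rose from 62.5, 55.9 and 49.0 to 304, 325 and 339 (log2 fold change 2.52 ± 0.12 (SE), adjusted p = 4.6e-10). The histone genes HIST1H2AC (2.33), HIST1H2BD (2.02) and HIST3H2A (1.98) were among the 12 largest rises at that level. The Hedgehog release gene family member DISP2 (2.44), the dynein assembly factor gene DNAAF3 (2.34), CTXN1 (2.32), the NIMA-related kinase gene NEK11 (2.21), TMEM52 (2.10), the mitochondrial ATPase gene ATAD3B (2.06) and the CSK-family kinase gene MATK (1.95) made up the rest. Of these 24 genes, JAZF1, TNC, ADAM19, DKK3, CA9, PRKCH, POLR3G, DNAAF3 and NEK11 overlap a gene on the other strand in the annotation, and without a stated strand setting their reads cannot be told apart.

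Of 18 integrin genes measured, 10 were called down and 1 up (median log2 fold change −0.74). ITGB1, the beta subunit shared by most epithelial integrins, stood at 2942, 2958 and 2797 in the siCont libraries and 1212, 1241 and 1445 in the siBRDT libraries. No siBRDT library reached the lowest siCont library, and the log2 fold change was −1.16 ± 0.07 (SE), adjusted p = 6.5e-09. The fibronectin receptor subunit ITGA5 (−1.20), the vitronectin receptor subunit ITGB5 (−1.17), the collagen receptor subunit ITGA2 (−1.11) and the laminin receptor subunit ITGA6 (−0.91) fell to a like extent, and the one that rose was ITGAE (0.58), whose product pairs with beta 7 to bind E-cadherin.

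The hemidesmosome, which anchors basal keratinocytes to laminin-332, had 6 of 10 genes called down and 0 up (median −0.85). LAMB3, the beta chain of laminin-332, was 8651, 8532 and 8524 in siCont and 4743, 5055 and 4777 in siBRDT. The groups did not overlap, with a log2 fold change of −0.82 ± 0.06 (SE), adjusted p = 2.2e-08. The alpha chain LAMA3 (−0.89) and the anchoring fibril collagen COL7A1 (−1.18) fell as well. On the cell side, ITGA6 and the plaque linker DST (−0.92) were called down, whereas ITGB4 (−0.37), COL17A1 (−0.36), CD151 (−0.42) and the plectin gene PLEC (0.18) were not called.

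Collagens and other matrix genes were called down for the most part where they were called. Of 27 collagen genes, 12 were called down and 3 up (median −0.48), including the basement membrane chain COL4A1 (mean 2530.5 to 1047, log2 fold change −1.27), COL5A1 (−1.24) and COL27A1 (−1.18), with the fibrillar chain COL3A1 (0.82) among the rises. Of 41 matricellular and matrix glycoprotein genes, 19 were called down and 1 up (median −0.37). Tenascin-C, a matrix protein of wounds and tumor stroma, was 1067, 1193 and 1394 in the siCont libraries and 215, 251 and 261 in the siBRDT libraries. Even the lowest siCont library was more than 4 times above the highest siBRDT library, with a log2 fold change of −2.32 ± 0.10 (SE), adjusted p = 2.5e-10. The proteoglycan SPOCK1 (−2.58), fibronectin (FN1, −2.07) and the latent TGF-beta binding protein LTBP1 (−1.72) fell by more than 3-fold as well.

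Matrix proteases with their receptors and inhibitors were changed in both directions, with 12 called down and 4 up of 19 (median −0.61). The proteases alone had 7 down and 3 up of 13 (median −0.75). The falls held the gelatinase MMP2 (mean 764 to 185, log2 fold change −2.05), its inhibitor TIMP2 (809 to 199.6, −2.02), the urokinase gene PLAU (−1.91) and the interstitial collagenase MMP1 (−1.60). The rises held the membrane-type proteases MMP14 (0.54) and MMP15 (0.90), MMP11 (0.56) and the protease inhibitor SERPINE2 (0.83). In the actin stress fibre and focal adhesion list, 16 of 48 genes were called down and 0 up (median −0.32), including the tropomyosin gene TPM4 (mean 3811 to 1149, log2 fold change −1.73), the smooth muscle actin gene ACTA2 (−1.52) and the integrin-binding adaptors PARVA (−1.25) and FERMT2 (−1.08).

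**Figure D2:**
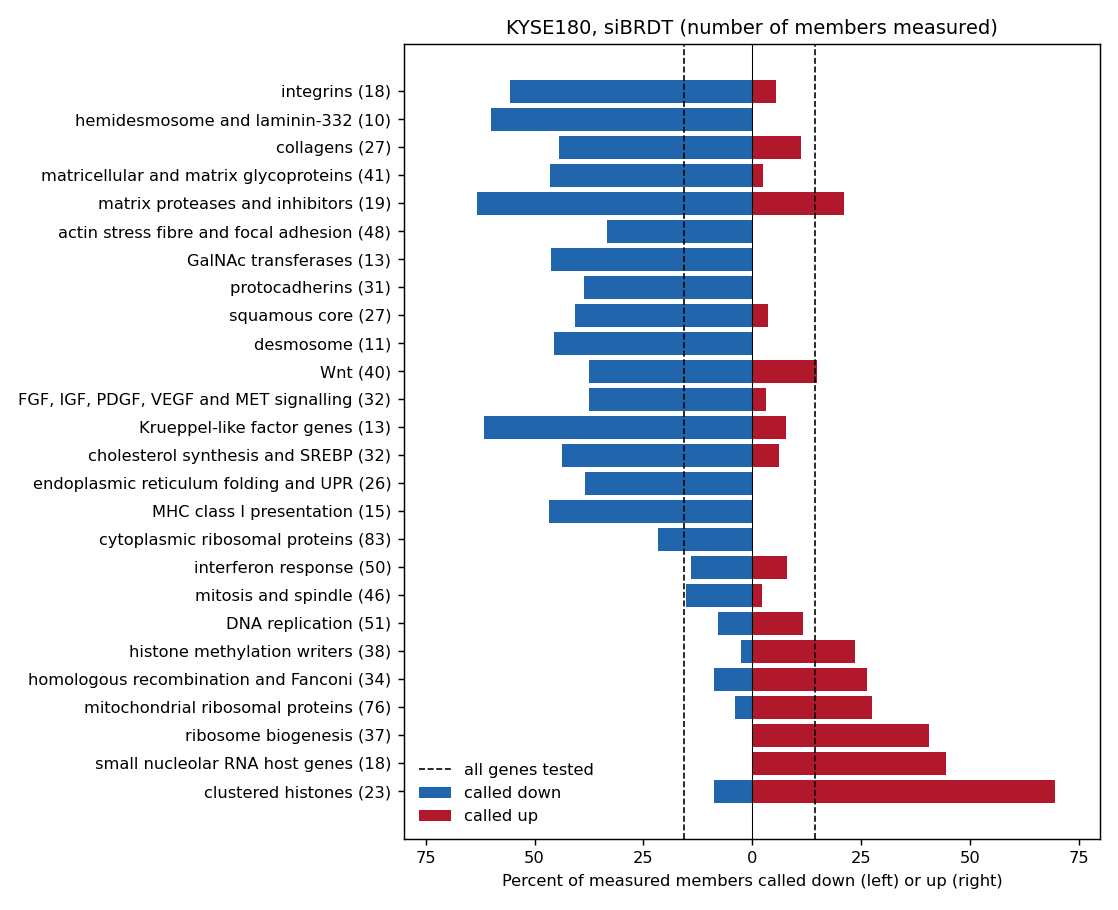
Percent of the measured members of 26 gene groups called down (blue, left) and up (red, right) upon BRDT knockdown in KYSE180, with the number of members measured in parentheses and dashed lines at the share of all genes tested, 15.8% down and 14.5% up. Attachment and matrix groups extend past the left line, clustered histones and ribosome biogenesis past the right line, and mitosis and DNA replication past neither.

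The GalNAc transferases, which start mucin-type O-glycosylation in the Golgi, had 6 of 13 members called down and 0 up (median −0.40), among them GALNT1 (mean 1228 to 413, log2 fold change −1.57), GALNT11 (−1.39) and GALNT2 (−1.13). Without the first siBRDT library the median was −0.76, with 7 members called down. Of 31 protocadherins, 12 were called down and 0 up (median −0.48). PCDH19 was the strongest of those named (mean 1409 to 586, log2 fold change −1.27), and the clustered members PCDHB5 (−0.76) and PCDHB6 (−0.90) share similar coding sequence, so that reads may be split between them. The ADAM and ADAMTS proteases were mixed, with 8 called down and 7 up of 24, and 4 up without the third siBRDT library.

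The study followed the squamous program with BRDT, and chose some of its genes on these libraries, so that their direction is not independent evidence. Of 27 squamous core genes, 11 were called down and 1 up (median −0.33). FAT2, a giant atypical cadherin of squamous cells, was 2482, 2763 and 3207 in the siCont libraries and 746, 871 and 962 in the siBRDT libraries. The groups did not overlap (log2 fold change −1.71 ± 0.10 (SE), adjusted p = 2.9e-09). TP63 itself stood at 9399.6, 9933 and 10366 in siCont and 5924, 6724 and 7223 in siBRDT, and its log2 fold change of −0.58 ± 0.07 (SE), adjusted p = 8.8e-06 was just past the limit of 0.5. The basal keratins KRT5 (mean 53066 to 26069, log2 fold change −1.02) and KRT14 (9469.6 to 4280.5, −1.14) fell to about the same extent as the wound keratin KRT16 (−1.13), and PTHLH, which encodes parathyroid hormone-related protein, fell further (3376 to 1028, −1.71). The one rise was GRHL3, a Grainyhead factor of terminal differentiation (45.8 to 138, 1.57). Among its 10 transcription factors, 1 was called down and 1 up, and the other falls lay in keratin and adhesion genes.

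In the keratin family, 7 of 17 measured members were called down and 1 up (median −0.38), KRT7 of simple epithelia being the rise (47.9 to 99.96, 1.02). Of 11 desmosome genes, which join keratinocytes to each other, 5 were called down and 0 up (median −0.47), with 3 down without the first siBRDT library. The desmocollins DSC2 (−1.60) and DSC3 (−0.99) fell, desmoplakin (DSP, −0.57), PKP1 (−0.53) and PERP (−0.51) fell little and lost their call under some alternatives, and the desmogleins DSG2 (−0.47) and DSG3 (−0.33) were not called. Of 13 S100 genes, 5 were called down and 2 up, with S100A14 (−1.59) and the basal cell gene S100A2 (−0.77) down and S100A9 up (0.59). In the cornified envelope list 3 genes were called down and 3 up of 15, with KLK7 (1.51) and TGM1 (0.88) among the rises. The list had no common direction, with a median of −0.08, a lowest log2 fold change of −1.09 and 60% below 0.

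Of 40 Wnt pathway genes, 15 were called down and 6 up (median −0.17). The ligands had 5 down and 0 up of 11, among them WNT7A (−1.97) and WNT3 (−0.996), and the receptors had 7 down and 1 up of 14, among them FZD7 (−0.97). The antagonists leaned the other way, with 3 down and 5 up of 10. APC (0.62), ZNRF3 (0.51) and NKD2 (0.50) rose, and DKK3, a member of the Dickkopf family, fell from 2974 ± 12.7 to 547 ± 38.8 (log2 fold change −2.44 ± 0.07 (SE), adjusted p = 9.2e-12). APC, ZNRF3 and NKD2 each lost the call under at least 1 alternative, NKD2 at 0.32 with the trend on transcript length and GC content removed. Without the second siBRDT library, 3 genes of the list were called up.

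The TGF-beta and BMP list had 13 genes down and 6 up of 36 (median −0.11). The receptors ACVR1 (−1.44), TGFBR2 (mean 2715 to 1260.2, −1.11) and TGFBR3 (−0.98) and the activin antagonist FST (−1.10) fell, and the BMP target ID1 (0.85), the pseudoreceptor BAMBI (0.81) and the stress cytokine GDF15 (0.97) rose. In the EGF receptor and MAPK feedback list, 11 of 29 were called down and 5 up (median −0.27), with 3 up without the third siBRDT library. Its falls held the ligands AREG (mean 632 to 232, −1.44) and NRG1 (−0.98) and the ERK phosphatase DUSP6 (−0.78), and DUSP4 rose (1.13). Other growth factor genes, the FGF, IGF, PDGF, VEGF and MET list, were called down in 12 of 32 cases and up in 1 (median −0.39), including the FGF carrier FGFBP1 (mean 5957 to 2046, −1.54), the receptor kinase AXL (−1.41), IGFBP5 (10114 to 4229.5, −1.25) and the semaphorin and VEGF co-receptor NRP2 (−1.24).

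Among genes of transcription factors, immediate early genes fell in 8 of 21 cases and rose in 1. EGR1, a zinc finger factor that serum and growth factors induce within minutes, was 1178, 1219.5 and 1418 in the siCont libraries and 279, 289 and 276 in the siBRDT libraries. The groups were apart in all libraries (log2 fold change −2.17 ± 0.08 (SE), adjusted p = 7.9e-11). The Krueppel-like factors overlapped this list and had 8 down and 1 up of 13 (median −0.72), with KLF2 (−1.69), KLF7 (−0.94), KLF6 (−0.92) and KLF10 (−0.86) down and KLF15 (0.82) up. Retinoid genes were split, 7 down and 5 up of 16 (median 0.12). The binding protein CRABP2 (−1.39) and the receptor RARB (−1.19) fell, and the retinaldehyde-forming enzyme RDH10 (1.03) and the receptor RARA (0.62) rose. Without the second siCont or the first siBRDT library, 3 retinoid genes were called up. The NF-kB, cytokine and chemokine list was nearer to the background, with 10 down and 7 up of 47. IL6R (−1.47) and CX3CL1 (−1.37) fell and NFKBIB (1.03) rose.

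Of 32 genes of cholesterol synthesis and its SREBP control, 14 were called down and 2 up (median −0.45). MSMO1, a sterol demethylation enzyme of the late pathway, was 2018, 1966 and 2049 in the siCont libraries and 788, 783 and 729.5 in the siBRDT libraries. The siBRDT libraries were all below the lowest siCont library (log2 fold change −1.39 ± 0.06 (SE), adjusted p = 3.6e-10). The enzymes SC5D (−1.53) and SQLE (−1.19) fell by more than 2-fold, and the cholesterol exporter ABCA1 rose (205 to 509.7, 1.29). Fatty acid genes were called down in 8 and up in 3 of 33 cases (median −0.38). Endoplasmic reticulum folding genes had 10 of 26 members down and 0 up (median −0.36), with the disulfide isomerases PDIA4 (mean 4607 to 1709.7, −1.43) and PDIA6 (−1.03), the co-chaperone DNAJB9 (−2.01) and the stress factor XBP1 (−1.12). Lysosomal genes were called down in 13 and up in 6 of 44 cases, with the acid sphingomyelinase SMPD1 down (−1.67) and the cystine exporter CTNS up (1.34).

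Of 20 hypoxia genes, 7 were called down and 1 up (median −0.33). CA9, the cell surface carbonic anhydrase, fell from 195, 181 and 197 to 25.5, 48.6 and 34.8 (log2 fold change −2.41 ± 0.19 (SE), adjusted p = 6.7e-08), and HIF1A fell from a mean of 4173 to 2328 (−0.84), whereas adrenomedullin (ADM) rose (0.61). Of 4 metallothioneins, which bind zinc and copper, 3 were called down (MT1E −1.35, MT2A −0.78 and MT1X −0.55), and as near-identical paralogs they may share reads. In the p53 list 6 of 28 genes were called down and 1 up, with the cell cycle inhibitor CDKN1A at a mean of 544 to 218 (log2 fold change −1.32 ± 0.08 (SE), adjusted p = 7.8e-09).

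Antigen presentation and interferon genes differed. Of 15 genes of MHC class I presentation, 7 were called down and 0 up (median −0.41). The invariant light chain B2M was 9021, 8341 and 8102 in the siCont libraries and 4739, 4185 and 4131 in the siBRDT libraries. Each siBRDT value was below each siCont value (log2 fold change −0.97 ± 0.07 (SE), adjusted p = 2.6e-08). The heavy chains HLA-B (−1.03) and HLA-F (−1.21) and the peptide trimming enzyme ERAP2 (−0.94) fell too, and reads may be shared among the similar class I genes. The interferon response list stayed at the background, with 7 down and 4 up of 50 (median −0.05, or 0.00 with the trend on transcript length and GC content removed). The antiviral effectors IFIT2 (0.86) and IFIT3 (0.86) rose, the RNA sensor gene DHX58 (−0.66) and the receptor gene IFNAR2 (−0.84) fell, and ISG15 (−0.06) and IFI6 (−0.09) were not called.

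**Figure D3:**
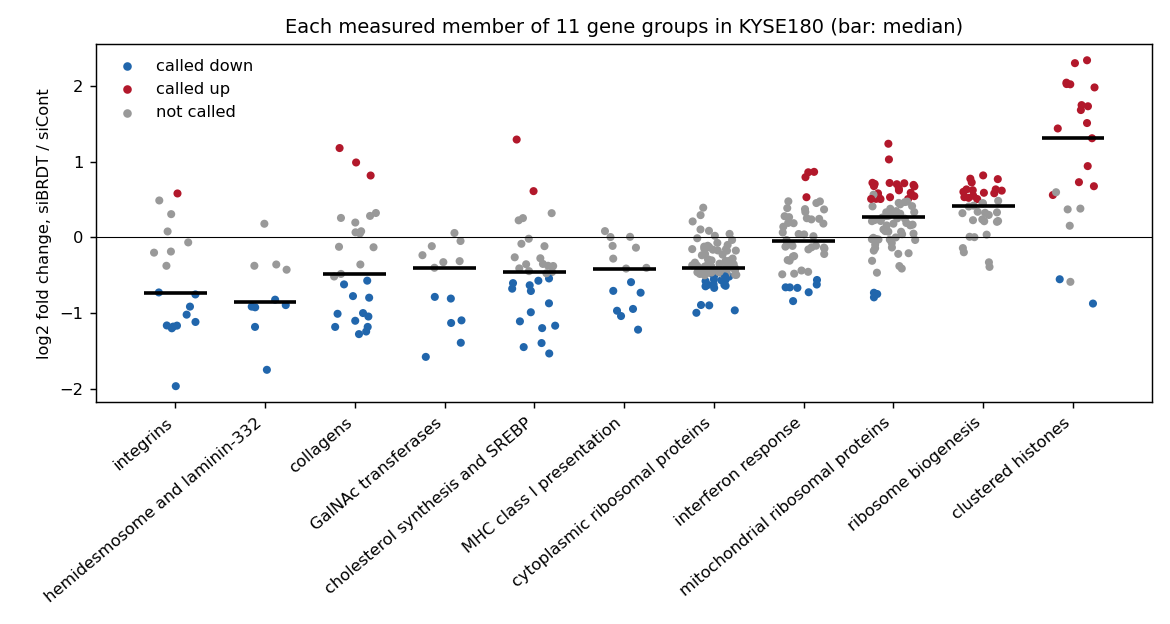
log2 fold change (siBRDT over siCont) of each measured member of 11 gene groups in KYSE180, with called genes in blue (down) or red (up), genes not called in grey and black bars at the medians. The medians run from −0.85 for the hemidesmosome list to 1.31 for clustered histones, and cytoplasmic ribosomal proteins form a narrow band below 0.

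Ribosomal proteins of the cytoplasm moved little and mostly downwards. Of 83 genes, 18 were called down and 0 up, 91.6% of the log2 fold changes were below 0 and the median was −0.40. RPL19 (mean 13923 to 7011, log2 fold change −0.99), RPL37A (−0.96) and RPL32 (−0.89) were among those that fell. Many members lay close to the limit of 0.5, and the number called down was 34 without the first siBRDT library, and also 34 without the third siCont library. The mitochondrial ribosomal proteins moved the other way, with 3 down and 21 up of 76 (median 0.27), among them MRPL34 (mean 459 to 1090.0) and MRPS30 (1.03) up and MRPL54 (−0.79) down. Without the first siBRDT library 14 were called up.

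Of 37 ribosome biogenesis genes, 15 were called up and 0 down (median 0.42), including POLR1A, the largest subunit of RNA polymerase I (mean 612 to 1088, 0.82), and the nucleolar factors NOP16 (0.77) and RRP1 (0.77). Of 18 host genes of small nucleolar RNAs, which guide ribosomal RNA modification from their introns, 8 were called up and 0 down (median 0.49). SNHG7 was 724, 677 and 598 in the siCont libraries and 2251, 2431 and 2069 in the siBRDT libraries. All siBRDT libraries were more than 2 times above all siCont libraries (log2 fold change 1.76 ± 0.08 (SE), adjusted p = 4.0e-10). RNA polymerase III had 4 of 10 subunit genes up and 0 down, POLR3G as above, POLR3E (0.76), POLR3F (0.73) and POLR3K (0.69). Its paralog POLR3GL stood at 334 to 297 (−0.17) and was not called. Of 20 cytoplasmic aminoacyl-tRNA synthetases, 4 were called up and 0 down, FARSB rising the most (0.71).

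Of the groups described here, the clustered histone genes had the highest share of rises at the filter used. Of 23 measured, 16 were called up and 2 down (median 1.31). Without the second or the third siBRDT library 0 were called down by limma. The filter takes the mean of both groups, so that histone genes low in siCont enter only if they rise. With no filter on low values, 22 of 62 were called up and 1 down (median 0.58). That share was no longer the highest, as 15 of 37 ribosome biogenesis genes were then called up. HIST1H2AC was 89.4, 109 and 100.03 in the siCont libraries and 495, 519.8 and 498 in the siBRDT libraries. The siBRDT libraries were at least 4 times above the siCont libraries (log2 fold change 2.33 ± 0.10 (SE), adjusted p = 2.0e-10). HIST1H2BD (136 to 552), HIST3H2A (52.9 to 207) and HIST1H3H (24.2 to 79.7, 1.73) rose likewise, and HIST1H2BK fell (−0.55). Most transcripts of these genes carry no poly(A) tail, the library kit selects poly(A) RNA, and the family is nearly identical in coding sequence, so that the values count a polyadenylated share and reads may be split between members. The replication genes that accompany histone supply in S phase were called less often than all genes tested. Of 51, 4 were down (7.8%) and 6 up (11.8%), with a median of 0.08, or 6 down without the first siBRDT library. TK1 (−0.92), TYMS (−0.81) and MCM5 (−0.77) were among the falls of this list and POLE3 (1.35) among its rises. Of its log2 fold changes, 41.2% were below 0. In the mitosis and spindle list, 7 of 46 were down and 1 up.

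Histone methylation writers had 9 up and 1 down of 38, with the arginine methyltransferases PRMT5 (mean 2953 to 5427, 0.88) and PRMT3 (1.07) and the H3K9 methyltransferase SUV39H1 (0.96) up and WHSC1 down (−0.61). Homologous recombination and Fanconi genes had 9 up and 3 down of 34, with the recombinase paralog RAD51C (1.03) and RAD52 (1.01) up and FANCC down (−0.75). Lysine demethylases had 4 down and 1 up of 18, histone acetylation genes 4 and 4 of 31, and Mediator subunits 4 and 4 of 31. HOX genes had 3 down and 8 up of 32. In the list of BET, P-TEFb and pausing genes, 7 of 26 were up and 1 down, the fall being BRDT. MEPCE, which caps the inhibitory 7SK RNA of P-TEFb (0.63), the negative elongation factor subunits NELFA (0.62) and NELFCD (0.69) and ELL3 (0.79) were among the rises. Of 10 germ cell and meiosis genes that passed the filter, of 32 listed, 5 were up and 2 down at low levels. TEX19 stood at 17.4 to 63.6 (1.81) and the cohesin gene SMC1B at 5.39 to 25.5 (2.28). The filter takes the mean of both groups, so that SMC1B passed only through its siBRDT level. Genes low in siCont enter this list only if they rise, and its share called up cannot be read against the background. With no filter, 5 of 27 were up and 2 down.

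Of 37 genes of the ATF4 list, 9 were up and 4 down, with asparagine synthetase (ASNS, mean 1779 to 3209.9, 0.85) and the serine pathway enzyme PSPH (1.08) up and MTHFD2 down (−0.88). Of 32 NRF2 genes, 5 were up, near the background share, and 1 down, with OSGIN1 (mean 678 to 2347, 1.78), heme oxygenase 1 (HMOX1, 1.21), the glutathione synthesis gene GCLM (1.20) and the cystine importer SLC7A11 (0.90) up. Of 38 complex I subunits, 3 were up and 0 down, with 5 up without the third siBRDT library. The solute carriers, the family of SLC22A17, stood near the background with 33 down and 33 up of 216, and the ZNF genes had 30 down and 45 up of 390.

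In order to see where KYSE180 differed from the other line, its fold changes were tested against those of TE6. Of 12598 genes tested in both, 2362 (18.7%) had a lower and 2753 (21.9%) a higher fold change in KYSE180 at an adjusted p under 0.05. SLC22A17 fell more in KYSE180 (−3.26 against −1.32, difference −1.94 ± 0.19 (SE), adjusted p = 2.9e-06), and CLEC2L rose more (2.64 against 1.14, difference 1.503 ± 0.17 (SE), adjusted p = 1.3e-05). For BRDT the log2 fold changes were −2.75 and −2.23 (difference −0.52 ± 0.21 (SE), adjusted p = 0.057), and for TP63 −0.58 and −1.15, a difference of 0.57 ± 0.13 (SE), adjusted p = 0.0034. The differences of FAT2, KRT14 and PTHLH did not pass the threshold (0.21 ± 0.17, 0.32 ± 0.13 and −0.10 ± 0.12, adjusted p = 0.34, 0.059 and 0.54).

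Interferon genes held 4 of the 5 largest negative differences among genes with a mean of at least 100 in both lines. ISG15, a ubiquitin-like antiviral protein, was 1268, 1238 and 1089 in the siCont libraries and 1286, 1216 and 965 in the siBRDT libraries in KYSE180, and 488 and 340.2 in siCont and 10675 and 7269 in siBRDT of TE6. The KYSE180 groups overlapped, and the TE6 groups lay more than 10-fold apart (difference −4.49 ± 0.23 (SE), adjusted p = 3.6e-09). IFI6 (−3.77), OASL (−2.94) and IFIT1 (−2.59) were the others, with HABP4 (−2.64) as the fifth gene. Over the list, 34 of 48 genes were lower in KYSE180 and 4 higher (median −0.05 against 1.17 in TE6). The cytoplasmic ribosomal proteins split the lines as well, with 75 of 83 lower in KYSE180 and 1 higher (median −0.40 against 0.51), and so did MHC class I presentation (9 of 15 lower and 1 higher, −0.41 against 0.26). In the other direction, 13 of 20 clustered histones were higher in KYSE180 and 1 lower (1.31 against 0.27). Integrins (3 lower and 2 higher of 16) and the cholesterol list (8 and 5 of 32) differed at about the background rate or below it. The line and its own control libraries cannot be told apart, and the first TE6 siBRDT library listed 5490 genes at 0 against 9562 to 9668 in the other 3 TE6 libraries. Without the second TE6 siCont library, 1671 genes were lower and 1873 higher.

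The same line under siTP63, which shares no library with the BRDT experiment and was set against siCont libraries of its own, gave the third set of values. Of 13311 genes, 4170 (31.3%) had a lower and 4489 (33.7%) a higher fold change under siBRDT. Rescaling the libraries to equal upper quartiles moved the median difference of all genes from 0.02 to −0.16 on the log2 scale and the counts to 5047 lower and 3686 higher. The integrins had a median of −0.74 under siBRDT and 0.07 under siTP63, with 9 of 16 lower under siBRDT, and the protocadherins −0.48 and 1.14, with 24 of 28 lower. The squamous core had medians of −0.33 and −0.79, but its parts differed. Its keratins had medians of −0.56 and −1.14, and its adhesion and other genes −0.52 and −0.82. Its transcription factors had −0.03 and 0.85, with 5 of 9 lower under siBRDT and 2 higher. MMP2's inhibitor TIMP2 fell under siBRDT (−2.02) and rose under siTP63 (1.96), as did the adenosine-forming enzyme gene NT5E (−1.61 and 2.48), and CLEC2L rose under siBRDT (2.64) and fell under siTP63 (−1.66). Ribosome biogenesis genes were apart under the knockdowns (median 0.42 and −0.92, 36 of 37 higher under siBRDT), and the replication list had medians of 0.08 and −1.11. The interferon list, flat under siBRDT in KYSE180 (median −0.05), rose under siTP63 in the same line (median 1.51, 40 of 50 called up). Of its 50 genes, 44 were lower under siBRDT and 1 higher.

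**Figure D4:**
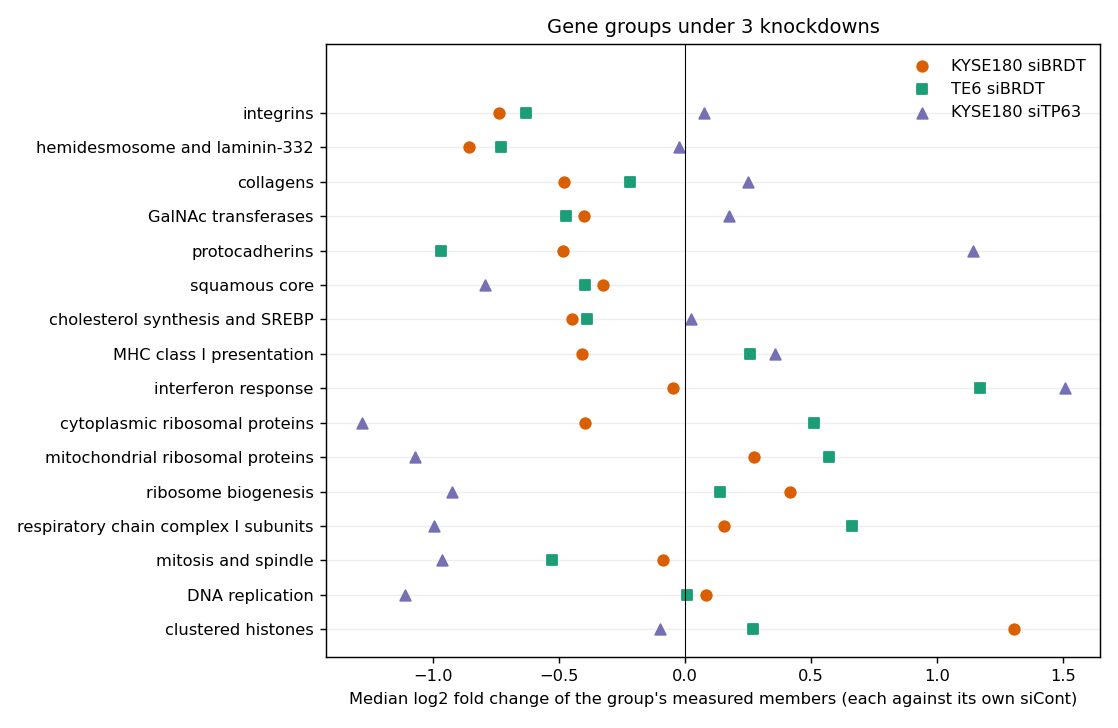
Median log2 fold change of the measured members of 16 gene groups, each knockdown against its own siCont libraries, for KYSE180 siBRDT (circles), TE6 siBRDT (squares) and KYSE180 siTP63 (triangles). Integrins and the hemidesmosome lie left of 0 under siBRDT in both lines, and the interferon list lies near 0 in KYSE180 siBRDT and right of 1 in the other comparisons.

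As a last measurement, the 3′ untranslated regions of 12386 tested genes were searched for the 7 bases in capitals above, in the sense direction. Sites of the siRNAs against BRDT were more frequent among genes called down. At least 1 of the 4 sites was present in 42.3% of genes called down, 20.1% of genes called up and 27.7% of genes not called, against 28.9% of all. Genes called down also had longer untranslated regions (median 1735 bases, against 1240.5 in genes called up), so the shares were read within regions of 2000 to 4000 bases. There, 27.1% of genes with a #2 site and 16.0% of those without were called down. The shares were 25.4% and 15.6% for #3, 23.4% and 16.4% for #4, and 19.6% and 17.3% for #18. For the siRNAs against TP63, which were not transfected into these cells, they were 16.0% and 17.6% (#5) and 21.3% and 16.4% (#8). The non-targeting siRNA of the siCont cells had only 35 genes with a site in that range. Of these, 14.3% were called down and 22.9% up, against 17.45% and 11.49% of genes without its site. Of the 12 largest falls, 5 held a site, JAZF1 and KDM1B among them, and SLC22A17 held none. TP63 held none either, and FAT2 held sites of #3 and #18. A match of 7 bases is a description of the sequence, and the part of seed pairing in these values was not tested.

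**Figure D5:**
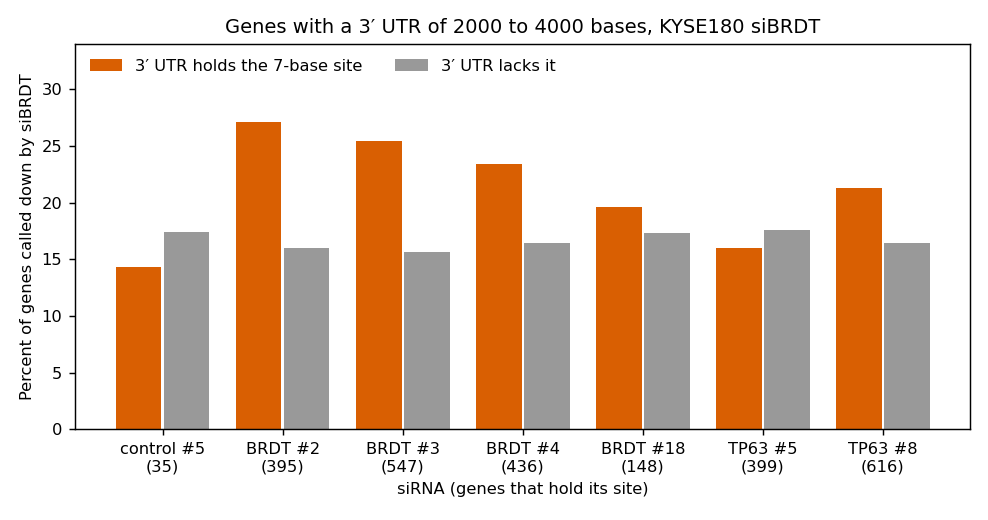
Percent of genes called down by siBRDT in KYSE180 among genes with a 3′ untranslated region of 2000 to 4000 bases that holds (orange) or lacks (grey) the 7-base site of each siRNA, with the number of genes that hold it in parentheses. The orange bar is highest for BRDT #2 at 27.1%, and the control siRNA has 35 genes with a site.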

How the data were processed

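RNA was extracted with QIAzol from KYSE180 cells and sequenced from TruSeq V2 libraries. The deposited values were signal-like normalised read counts that the authors made with STAR 2.6.0 (hg38), HTSeq 0.11.2 and DESeq2 1.24.0, per their processing notes. The annotation and strand setting of the counting are not given in the sources used here. Dividing each value by that of 1 read gave whole reads (tolerance 0.01) for 100% of values, 9085475 to 14779153 per library, at which 3 reads correspond to 2.27 to 3.68 normalised counts. Samples were grouped by their labels.

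log2(value + 1) of genes with a mean of at least 10 over the 6 libraries was fitted with limma 3.58.1 (empirical Bayes with a trend, R 4.3.3), two-sided, with Benjamini-Hochberg adjustment over all 13589 genes tested. Genes were called at an adjusted p under 0.05 and a log2 fold change of 0.5 or more in size, as in the study's thresholds. Contrasts of fold changes with TE6 and with siTP63 had no fold change limit. Alternatives were a pseudocount of 0.1, no filter, upper quartile scaling, a replicate block, the count tests of edgeR (4.0.16) and of DESeq2 (1.42.0) run with whole reads, removal of the trend on transcript length and GC content, no fold change limit and leaving out each library. The fits were tested on simulated data.

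Gene lists and symbol families were described by the number of members called and their median. The genes named were the study's markers, the 12 largest falls and rises with a mean of at least 100, all members of lists of up to 12 measured genes, key members and the 4 largest changes in each direction with a mean of at least 50 in longer lists, and the 5 largest differences in each direction per contrast. The comparison, lists and families were chosen with earlier results of these data known. Gene positions came from GENCODE 44, which held 24542 of 26485 symbols (92.7%), and 1891 called genes overlap another gene there. siRNA sequences came from the study's list. Some named genes that the rule gives are not reported here.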

Additional observations from a re-analysis of the deposited data

Results flagged for a closer look

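The fold changes of KYSE180 and TE6 under siBRDT differed, by limma's test of the difference itself, in 2362 genes (lower in KYSE180) and 2753 genes (higher in KYSE180). The interferon-induced genes ISG15 (difference of log2 fold changes, KYSE180 minus TE6, −4.49), IFI6 (−3.77), OASL (−2.94) and IFIT1 (−2.59) were lower, as was HABP4, an RNA-binding protein gene (−2.64), which fell in KYSE180 (−2.14) and was not called in TE6 (0.50). Higher differences were those of the calcium channel gene ITPR1 (2.36), the fatty acid elongation gene HACD2 (2.28), the retinol-oxidising alcohol dehydrogenase gene ADH7 (2.07), TBC1D14 (2.02) and the nuclear receptor co-activator gene NCOA2 (2.002). ITPR1 and ADH7 rose in KYSE180 (1.37 and 0.95) and fell in TE6 (−0.99 and −1.13), and HACD2 stood at −0.09 in KYSE180 and fell by 2.37 in TE6 on the log2 scale. For SLC22A17 the difference was −1.94 and for CLEC2L 1.503, the same direction of change being seen in both lines. The line and its control libraries cannot be told apart in these differences.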

How the results depend on the processing

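Without a fold change limit, 4044 genes were called down and 3893 up. Under the other alternatives 1980 to 2204 genes were called down and 1869 to 2247 up, and leaving out 1 library in turn gave 2034 to 2172 down and 1844 to 1981 up. BRDT lay between −2.92 and −2.63 when 1 library was left out. Leaving out 1 library gave 1671 to 2579 genes lower and 1873 to 3275 higher in KYSE180 than in TE6, and 3605 to 4172 lower and 4046 to 4448 higher under siBRDT than under siTP63. With a replicate block, 2174 genes were called down and 2001 up. Whether the replicate numbers pair the samples could not be decided from the correlations of deviations from the group means. Same-numbered libraries gave 0.15, 0.0047 and 0.18. The first siCont with the third siBRDT library gave −0.16, and the third siCont with the first siBRDT library −0.16. The second siCont library correlated best with the first siBRDT library, at 0.0079. Named genes were followed under the alternatives that kept the limit of 0.5, and not under the one with no fold change limit. Of 190 genes named with a fold change, 171 kept their direction and side of the threshold under every such alternative. The call was lost under at least 1 by 14 and gained by 2 (CD151 with the trend on transcript length and GC content removed, DSG2 without the first siCont or the third siBRDT library, at −0.51 and −0.54). With that trend removed, MMP14 (0.49), MMP11 (0.49), DSP (−0.49), PERP (−0.44), S100A9 (0.43), NKD2 (0.32) and ADM (0.497) lost it, and PERP also with upper quartile scaling (−0.49) or edgeR (−0.497). Without the third siBRDT library PERP (−0.47), APC (0.43), ZNRF3 (0.48), MT1X (−0.48) and HIST1H2BK (−0.47) lost it. Without the third siCont library ITGAE (0.496), MMP14 (0.49), PKP1 (−0.49) and ZNRF3 (0.48) lost it, without the first siCont library PERP, NKD2, RARA and MT1X (−0.49, 0.48, 0.49 and −0.49), and without the second NKD2 (0.4965). Without the first siBRDT library DSP (−0.46), PKP1 (−0.497) and NKD2 (0.47) lost it, and without the second ZNRF3 (0.4965) and HIST1H2BK (−0.49). ISG15, IFI6 and HACD2 were not called and crossed 0 without 1 siBRDT library, the third for ISG15 (−0.14 to 0.065 over the libraries left out) and IFI6 (−0.18 to 0.00067) and the first for HACD2 (−0.24 to 0.016). With no filter on low values, list medians moved nearer to 0, from −0.74 to −0.21 for integrins, −0.48 to −0.03 for collagens, −0.38 to −0.08 for keratins, −0.72 to −0.42 for Krueppel-like factors, −0.66 to −0.27 for metallothioneins and 1.31 to 0.58 for clustered histones. With the trend removed, the list of matrix proteases and inhibitors had 2 called up, the desmosome list 3 down, mitochondrial ribosomal proteins 5 down and complex I 1 up. The medians of the S100 and immediate early lists were then −0.38 and −0.40. The median of the interferon list was 0.0019 with the trend on transcript length and GC content removed. The cause of these shifts was not tested. Depth limits genes under a mean of 10, which were not tested.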
